A study of Rattus norvegicus with 6 samples.

Results

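The Notch receptors, their ligands and their target genes were examined in the pulmonary veins (PVs) of rats with bilateral pulmonary vein banding (BPVB) and of sham-operated rats. The 10 genes were chosen by symbol and were the receptors Notch1, Notch2, Notch3 and Notch4, the ligands Jag1 and Dll4, and the target genes Hes1, Hey1, Hey2 and Heyl. All 10 were found among the 17833 genes of the deposited expression table. Bulk RNA-seq had been performed on PV tissue taken at the right upper lobe from 3 BPVB and 3 sham-operated wild-type Sprague-Dawley rats, with surgery at postnatal day 1 and tissue collection at postnatal day 21. The BPVB group had its PVs constricted, whereas the sham group had anesthesia and thoracotomy without banding. According to the paper, the sham surgery also exposed the PVs, and a suture was placed and taken out again. Each library came from 1 rat. Expression was given as FPKM (fragments per kilobase of gene scaled to the fragment total of the library), which allows levels to be compared between genes.

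Notch receptors are membrane proteins that are activated by ligands on neighboring cells. Ligand binding lets ADAM proteases and then the gamma-secretase complex cut the receptor, and the released intracellular domain enters the nucleus, where it binds the DNA-binding protein RBPJ and turns on genes such as the Hes and Hey repressors. In blood vessels, Dll4, Notch1 and Notch4 are best known from the endothelium, where they restrain sprouting and support arterial identity. Notch3 and Heyl are best known from smooth muscle cells and pericytes, the mural cells of the vessel wall, and Jag1 is made by both kinds of cell.

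The library totals were between 23439506 and 29725808 fragments, and the 10 genes had between 582 and 9827 fragments in a library. Markers of the vessel wall were present in both groups. The summed FPKM of 13 endothelial markers was between 1487 and 1497 in the BPVB group and between 1669 and 1690 in the sham group, and that of 10 smooth muscle markers was between 5005 and 5073 against 5558 and 5604. The summed FPKM of 8 alveolar type 2 markers, which are genes of the lung parenchyma, was between 552.5 and 598 in the BPVB group and between 61.5 and 63.0 in the sham group. For 10 macrophage markers the sums were between 718 and 736 against 257 and 263, and for 8 markers of cardiomyocytes, which form the myocardial sleeve of the PV, between 12741 and 13199 against 17705 and 18106. In bulk tissue, fewer cells of a type and less RNA per cell cannot be told apart.

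Of the 10 genes, 5 were lower in the BPVB group and 0 were higher, with an adjusted p under 0.05 (limma on log2(FPKM + 0.5), Benjamini-Hochberg adjustment over the 15150 genes tested). Among all genes tested, 14.3% were lower and 17.2% were higher by this adjusted p, 31.5% in both directions. At an unadjusted p under 0.05, 6 of the 10 genes were lower and 1 was higher, where 19.2% and 22.8% of all genes were. The 5 genes that fell were the ligand Dll4, the receptors Notch4 and Notch1, and the targets Hes1 and Hey1. In each of them, the 3 BPVB values lay below the 3 sham values, and all 5 remained lower with an adjusted p under 0.05 under the 18 alternatives tried. None of the 10 genes also passed an absolute log2 fold change of 1 in limma, a threshold passed by 3.27% of all genes tested, and none did under the alternatives. With limma-voom on the recovered fragments, 6 were lower and 1 was higher, where 15.6% and 18.4% of all genes were. The median log2 fold change of the 10 genes was -0.29, compared with 0.02 for all genes tested.

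**Figure D1:**
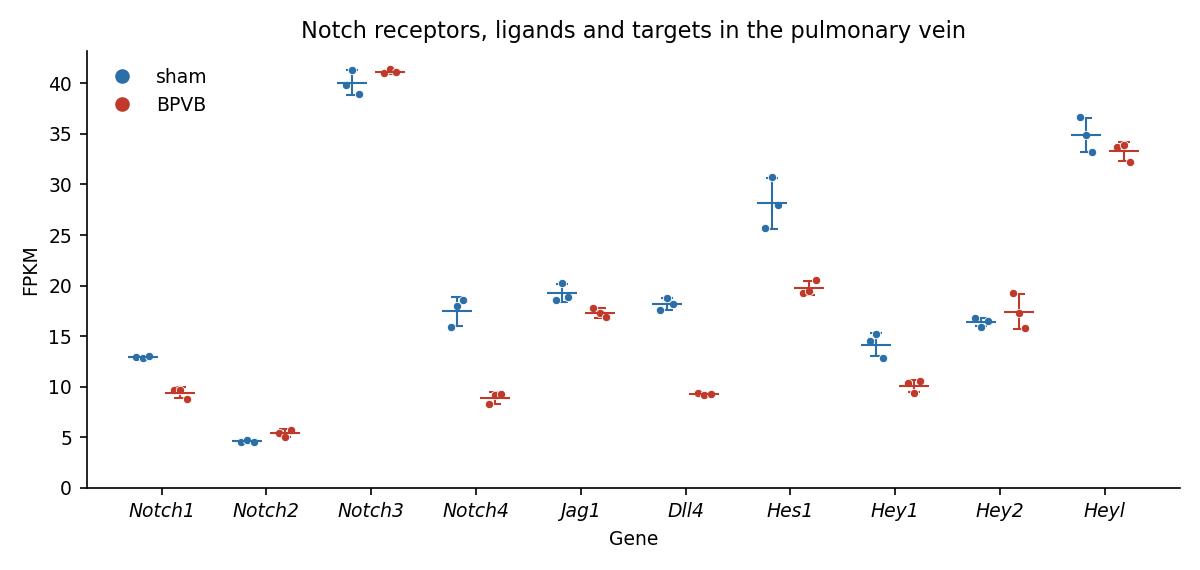
FPKM (y axis) of the 10 Notch genes (x axis) in the 3 sham (blue) and 3 BPVB (red) libraries, with points for rats and bars for the mean ± SD. Dll4 and Notch4 lay near 9 FPKM in the BPVB group and between 15.9 and 18.8 in the sham group, whereas the values of Notch3, Hey2 and Heyl overlapped between the groups.

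A window of 300 bases around the start of each gene, most of it upstream (RefSeq, GRCr8), was searched on both strands for TGGGAA, the core letters bound by RBPJ. Windows were found for 8 of the 10 genes, and not for Dll4 and Hey1. The core letters were in 4 of the 8 windows, compared with 25.7% of the 33469 windows of all promoters. These were the windows of Hes1 and Notch4, which fell, and of Hey2 and Notch3, whose groups overlapped. A match is a description of letters and not of binding. The 4 windows are shown because they differ in whether the gene fell while sharing the motif, with the core letters on either strand in capitals.
Hes1, chr11:84212996-84213295, minus strand: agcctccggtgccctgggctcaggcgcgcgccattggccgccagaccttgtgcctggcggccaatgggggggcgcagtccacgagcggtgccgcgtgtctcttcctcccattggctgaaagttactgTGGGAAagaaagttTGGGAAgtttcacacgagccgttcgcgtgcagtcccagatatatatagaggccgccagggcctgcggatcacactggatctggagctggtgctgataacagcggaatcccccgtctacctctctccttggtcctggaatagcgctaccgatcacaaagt
Notch4, chr20:4189023-4189322, minus strand: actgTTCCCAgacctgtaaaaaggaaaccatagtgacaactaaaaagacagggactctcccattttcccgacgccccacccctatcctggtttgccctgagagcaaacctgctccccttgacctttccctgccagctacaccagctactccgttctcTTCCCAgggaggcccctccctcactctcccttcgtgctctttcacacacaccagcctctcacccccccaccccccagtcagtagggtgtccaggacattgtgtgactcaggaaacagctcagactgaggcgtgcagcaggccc
Hey2, chr1:28640850-28641149, plus strand: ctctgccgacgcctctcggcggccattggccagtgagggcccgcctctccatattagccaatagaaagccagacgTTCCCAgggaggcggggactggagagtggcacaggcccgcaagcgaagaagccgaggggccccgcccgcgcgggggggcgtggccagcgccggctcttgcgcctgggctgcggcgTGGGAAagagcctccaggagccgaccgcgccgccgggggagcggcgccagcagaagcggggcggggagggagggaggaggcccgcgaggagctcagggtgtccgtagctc
Notch3, chr7:11834536-11834835, minus strand: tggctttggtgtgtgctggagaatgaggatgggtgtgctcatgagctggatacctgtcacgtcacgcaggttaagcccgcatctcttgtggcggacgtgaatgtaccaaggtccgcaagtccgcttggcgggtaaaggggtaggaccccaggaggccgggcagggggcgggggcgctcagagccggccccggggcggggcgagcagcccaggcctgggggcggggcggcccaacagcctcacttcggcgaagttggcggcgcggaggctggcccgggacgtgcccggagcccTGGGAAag
In Hes1, the copies began 123 and 109 bases before the start, in the same direction and 14 bases apart. In Notch4 they began 246 and 93 bases before the start, both on the opposite strand, and in Hey2 they began 175 and 60 bases before the start on opposite strands. Notch3 held 1 copy, 42 bases after the start. CACGCG, a site bound by Hes and Hey repressors, was found on either strand in 4 of the 8 windows (Hes1, Heyl, Jag1 and Notch2), compared with 8.5% of all windows, and did not overlap the RBPJ letters. CACGTG, another such site, which reads the same on both strands, was in 0 of the 8 windows and in 6.42% of all windows.

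Dll4 (NCBI Gene 311332), the endothelial ligand that restrains sprouting, had FPKM values of 9.42, 9.15 and 9.27 in the BPVB group and 17.6, 18.8 and 18.2 in the sham group. The groups were far apart, and the spread within each of them was small. The mean was 9.28 ± 0.13 against 18.2 ± 0.57 (SD, n = 3 each), a log2 fold change of -0.93 (adjusted p = 3.5e-06, standard error 0.054, limma). Jag1 (NCBI Gene 29146), the ligand made by endothelial and smooth muscle cells, had values of 17.8, 17.3 and 16.9 in the BPVB group and 18.6, 20.25 and 18.9 in the sham group. All BPVB values of Jag1 lay below the sham values, but by less than those of Dll4. Its log2 fold change of -0.15 (95% interval -0.27 to -0.03) missed the threshold (adjusted p = 0.067, limma), and passed it after median of ratios scaling (0.034) and with limma-voom (0.015). The ratio of Dll4 to Jag1 was between 0.529 and 0.550 in the BPVB group and between 0.926 and 0.963 in the sham group (two-sided exact permutation test, p = 0.1, below which 3 libraries against 3 cannot go). Jag1 was above Dll4 in all 6 libraries, by less in the sham group than in the BPVB group. On the GRCr8 map of RefSeq, Dll4 overlaps Dll4l1, a gene not analysed here, so that the counting could have shared fragments between them.

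Notch4 (NCBI Gene 406162), a receptor known mainly from the endothelium, had values of 8.24, 9.15 and 9.30 FPKM in the BPVB group and 15.9, 17.99 and 18.5 in the sham group. The lowest sham value was well above the highest BPVB value. The mean was 8.90 ± 0.57 against 17.5 ± 1.4 (SD, n = 3 each), a log2 fold change of -0.93 (adjusted p = 3.2e-05, standard error 0.077, limma). Notch1 (NCBI Gene 25496), the main receptor for Dll4 in endothelial cells, had values of 9.72, 9.71 and 8.76 FPKM in the BPVB group and 12.9, 12.8 and 13.0 in the sham group. Its groups did not overlap, and its fall was smaller than that of Notch4, with a log2 fold change of -0.44 (standard error 0.064, adjusted p = 0.00081, limma). The ratio of Notch4 to Notch1 was between 0.848 and 1.06 in the BPVB group and between 1.23 and 1.42 in the sham group (exact permutation test, two-sided, p = 0.1). The receptors differed in level in each sham library, with Notch4 above Notch1, whereas in the BPVB group Notch4 was above Notch1 in 1 library.

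Notch3 (NCBI Gene 56761), the receptor of smooth muscle cells and pericytes, had the highest level of the 10 genes in both groups. Its values were 41.0, 41.4 and 41.1 FPKM in the BPVB group and 39.9, 41.4 and 38.9 in the sham group, and the groups overlapped. The log2 fold change was 0.04 (95% interval -0.05 to 0.13, adjusted p = 0.47, limma), an interval that does not reach the change of Notch1 or Notch4. Notch2 (NCBI Gene 29492), a broadly expressed receptor, was the lowest of the 10 genes in both groups. It had values of 5.44, 5.02 and 5.75 FPKM in the BPVB group and 4.56, 4.71 and 4.54 in the sham group, with all BPVB values above the sham values. Its log2 fold change of 0.21 (95% interval 0.02 to 0.40) missed the threshold (adjusted p = 0.092, limma), and passed it with limma-voom on the recovered fragments (0.006).

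The summed FPKM of the receptors was 64.9 ± 0.45 in the BPVB group and 75.04 ± 1.85 in the sham group (SD, n = 3 each; exact permutation test, two-sided, p = 0.1). Within that sum, Notch4 made up between 12.8% and 14.3% in the BPVB group and between 21.7% and 24.7% in the sham group. The share of Notch1 was between 13.5% and 15.1% against 16.7% and 17.7%. The share of Notch3 was between 63.3% and 63.7% against 51.9% and 54.5%, and that of Notch2 was between 7.69% and 8.86% against 6.05% and 6.23%. No share overlapped between the groups (two-sided exact permutation test, p = 0.1 for each of the 4 shares, which cannot pass 0.05 with so few rats). The receptor mRNA was thus made up of more Notch3 and less Notch4 in BPVB PVs, although the level of Notch3 itself overlapped between the groups.

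**Figure D2:**
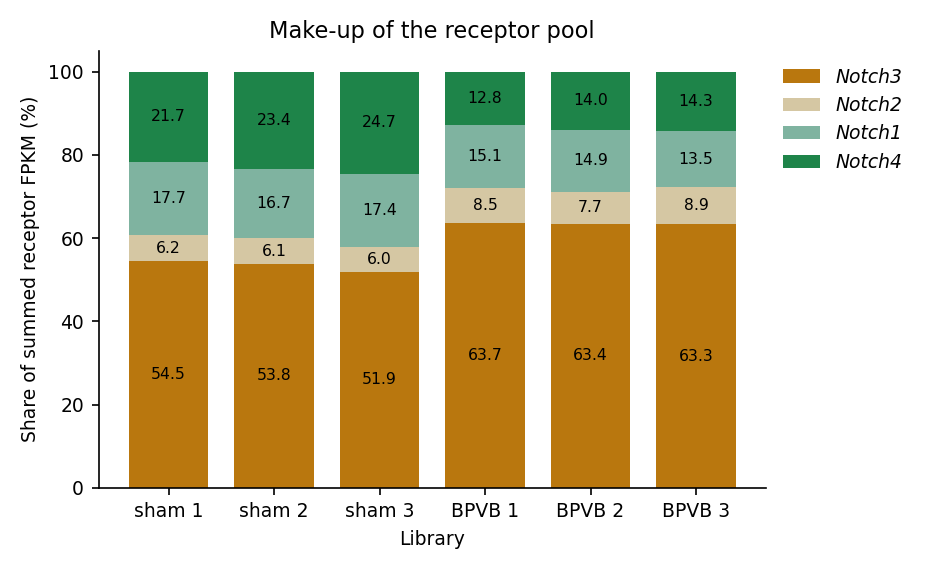
Share of each receptor in the summed FPKM of Notch1 to Notch4 (y axis, %) in each of the 6 libraries (x axis). The share of Notch4 was 21.7% or more in the sham libraries and 14.3% or less in the BPVB libraries, and that of Notch3 was 63.3% or more in the BPVB libraries.

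Hes1 (NCBI Gene 29577), a repressor made by many kinds of cell after Notch activation, had values of 19.3, 19.5 and 20.5 FPKM in the BPVB group and 25.7, 30.7 and 28.0 in the sham group. The sham values varied more than the BPVB values but did not overlap with them. It fell by a log2 fold change of -0.50 (adjusted p = 0.00057, standard error 0.067, limma). Hey1 (NCBI Gene 155437), a related repressor known from endothelial cells, had values of 10.4, 9.37 and 10.5 FPKM in the BPVB group and 14.5, 15.2 and 12.9 in the sham group. It fell by about as much as Hes1, with a log2 fold change of -0.47 (standard error 0.078, adjusted p = 0.0019, limma), and its groups did not overlap.

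Hey2 (NCBI Gene 155430), a target known from smooth muscle and arterial endothelium, had values of 19.2, 17.3 and 15.8 FPKM in the BPVB group and 16.8, 15.9 and 16.5 in the sham group. The BPVB values spread across the sham values, and the log2 fold change was 0.08 (95% interval -0.08 to 0.25, adjusted p = 0.44, limma). Heyl (NCBI Gene 313575), a target known from mural cells, had values of 33.7, 33.9 and 32.2 FPKM in the BPVB group and 36.6, 34.9 and 33.2 in the sham group. Its groups overlapped, with a log2 fold change of -0.07 (95% interval -0.18 to 0.04, adjusted p = 0.33, limma). Heyl overlaps the long noncoding gene LOC108351027 on the GRCr8 map. Of the summed FPKM of the 4 targets, Heyl made up 41.3% ± 0.92 in the BPVB group and 37.3% ± 1.6 in the sham group, and Hes1 made up 24.6% ± 1.3 against 30.05% ± 2.28 (SD, n = 3 each; exact permutation test, two-sided, p = 0.1 for both).

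Counted by overlap alone, 7 of the 10 genes had groups that did not overlap, 6 lower and 1 higher in the BPVB group, where 45.6% of all genes tested did not overlap (20.5% lower and 25.2% higher). The order of the levels differed between the groups in its middle part. In both groups, Notch3 was first, then Heyl and then Hes1, with no overlap between neighbors. In the sham group, Jag1, Dll4, Notch4 and Hey2 followed, each overlapping the next. In the BPVB group, Hey2 and Jag1 followed and overlapped, while Hey1, Notch1, Dll4 and Notch4 formed a lower run of overlapping neighbors between 8.24 and 10.5 FPKM.

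Because most Notch genes are carried by particular cells of the wall, each gene was also set against the endothelial and smooth muscle markers of the same library. Of the 13 endothelial markers tested, 8 were lower and 0 were higher in limma, where 14.3% and 17.2% of all genes tested were. At an unadjusted p under 0.05, 8 were also lower and 0 higher, where 19.2% and 22.8% of all genes were. The endothelial markers had a median log2 fold change of -0.17 and a range of -0.64 to 0.02. Flt1 (-0.64) and Emcn (-0.52), which were chosen after their values were seen, had larger log2 fold changes than Notch1, Hes1 and Hey1 and smaller ones than Dll4 and Notch4, and these differences were not tested. The sum of the endothelial markers in the BPVB group was 0.889 times that in the sham group. Of the 10 smooth muscle markers, 6 were lower and 1 was higher (median -0.15), where 14.3% and 17.2% of all genes tested were. Their sum in the BPVB group was 0.903 times that in the sham group. Per 100 FPKM of endothelial markers, Dll4 was between 0.612 and 0.629 FPKM in the BPVB group and between 1.05 and 1.11 in the sham group. Notch4 was between 0.551 and 0.625 against 0.943 and 1.11, and Notch1 was between 0.589 and 0.649 against 0.760 and 0.782. These genes were lower in the BPVB group also in relation to the sum of the endothelial markers, which is weighted towards the most abundant of them, such as Vwf (log2 fold change -0.03).

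Per endothelial marker sum, 5 of the 10 genes were lower and 3 were higher without overlap, where 10.1% of all genes tested were lower and 44.7% were higher. The 5 were again Dll4, Notch4, Notch1, Hes1 and Hey1, and with the geometric mean of the markers in place of their sum 5 were also lower. Against the smooth muscle marker sum the counts were also 5 and 3, where 11.1% were lower and 42.0% were higher. When all FPKM were divided by the endothelial marker sum of their library and refitted, the median of all genes tested moved to 0.17. The log2 fold changes were then -0.77 for Dll4 (adjusted p = 1e-05), -0.77 for Notch4 (8.8e-05), -0.33 for Hes1 (0.004), -0.31 for Hey1 (0.011) and -0.28 for Notch1 (0.0067, limma), where 7.65% of all genes were lower and 36.4% were higher by this rule. With the smooth muscle marker sum in its place, 5 were again lower and 3 higher, where 8.17% and 33.3% of all genes were. Relative to the endothelial markers, Notch2 (0.36), Hey2 (0.25) and Notch3 (0.21) were higher, with adjusted p of 0.0081, 0.022 and 0.0021 (limma). Against the background shift of 0.17, Notch3 and Hey2 lay close to the median gene. On the endothelial scale, Jag1 (0.02) and Heyl (0.10) turned in sign and were not called. The part of the lung epithelial, macrophage and cardiomyocyte markers in these differences was not tested.

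**Figure D3:**
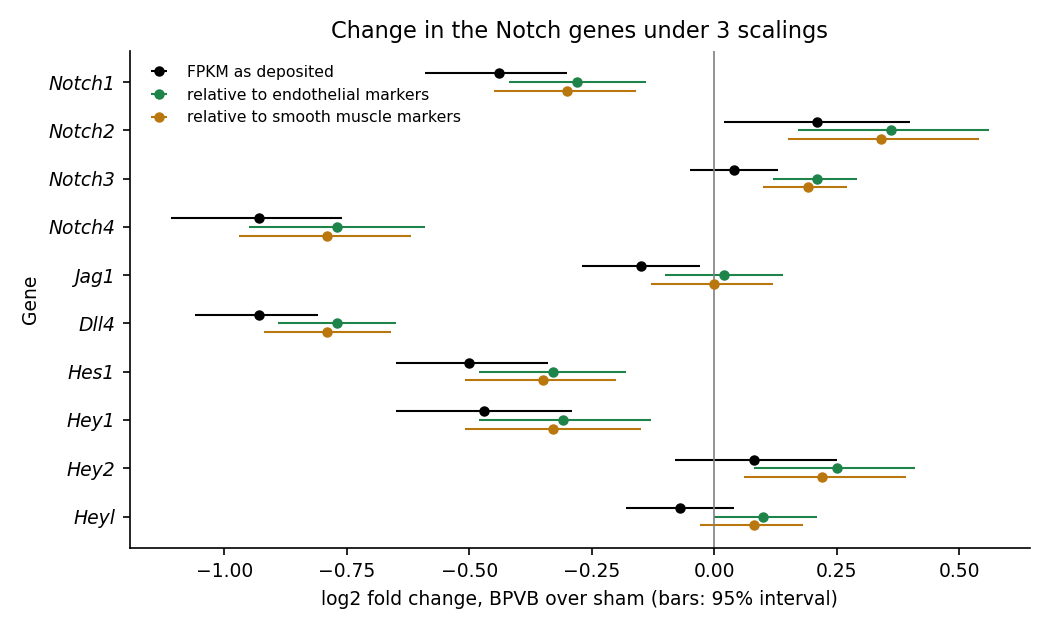
Log2 fold change (x axis, BPVB over sham) with its 95% interval for the 10 Notch genes (y axis), for FPKM as deposited (black) and for FPKM relative to the summed endothelial (green) or smooth muscle (orange) markers of the library. Dll4, Notch4, Hes1, Hey1 and Notch1 were below 0 on all 3 scales, and Notch2 was above 0 on all 3.

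The rest of the pathway was described from lists of 50 further genes by role, of which 47 were in the table and 46 were tested. In total, 8 were higher and 10 were lower with an adjusted p under 0.05 (limma), where 17.2% and 14.3% of all genes tested were, with a median log2 fold change of 0.03. In all 18 were called. The number of lower genes was 6 without BPVB replicate 2 and 6 without sham replicate 2. Dlk2, with at most 7 fragments in a library, was below the limit on expression.

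Nrarp and the Hes genes Hes2, Hes6 and Hes7 were listed as further targets, and whether Notch drives them here was not tested. Of these 4 genes, 3 were lower and 0 were higher in limma, where 14.3% and 17.2% of all genes tested were. At an unadjusted p under 0.05, 3 were also lower and 0 higher, where 19.2% and 22.8% of all genes were. Nrarp, which encodes a feedback inhibitor of Notch that is induced by Notch itself, had values of 14.6, 11.6 and 13.3 FPKM in the BPVB group and 19.0, 21.5 and 17.6 in the sham group. Its groups did not overlap, with a log2 fold change of -0.54 (standard error 0.097, adjusted p = 0.0028, limma). Hes6, a relative of Hes1 that opposes it, had a log2 fold change of -0.56 (adjusted p = 0.0077, limma). Hes2 had a log2 fold change of -1.08 (adjusted p = 0.032, limma) on 15 to 79 fragments in a library. Its adjusted p rose to 0.061 and 0.056 without BPVB replicates 2 and 3, to 0.10 and 0.08 without sham replicates 2 and 3, and to 0.067 with no filter. Without BPVB replicate 3, its log2 fold change was -0.70. Hes7 had a log2 fold change of 0.03 and was not called.

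Of 4 further ligands tested, 1 was higher and 2 were lower, where 17.2% and 14.3% of all genes tested were. Dll1, a ligand related to Dll4, had values of 5.84, 6.61 and 5.96 FPKM in the BPVB group and 7.72, 8.10 and 8.36 in the sham group (log2 fold change -0.37, adjusted p = 0.0065, limma). Relative to the endothelial markers, the change of Dll1 was -0.21 and was not called (adjusted p = 0.055, limma). Relative to the smooth muscle markers, it was -0.23 and was called (adjusted p = 0.04, limma). Jag2, a ligand related to Jag1, was higher, with 8.82, 9.18 and 9.69 FPKM in the BPVB group against 5.98, 8.08 and 7.24 in the sham group (log2 fold change 0.37, adjusted p = 0.027, limma). The call of Jag2 was lost without BPVB replicates 2 and 3 (adjusted p = 0.063 and 0.086, limma) and without sham replicates 1 and 3 (0.064 and 0.056). Dlk1, with 5 to 43 fragments in a library, had a log2 fold change of 0.47 (adjusted p = 0.075, limma). Dner, a noncanonical ligand, was lower (log2 fold change -0.63, adjusted p = 0.038, limma) on 12 to 84 fragments in a library. This change was -1.45 with limma-voom, -1.14 when 0.1 was added to the FPKM and -0.41 when 1 was added. Its adjusted p was 0.11, 0.054 and 0.06 without BPVB replicates 1, 2 and 3, and 0.12 and 0.071 without sham replicates 2 and 3.

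Of 9 genes of receptor cleavage, 4 were higher and 1 was lower, where 17.2% and 14.3% of all genes tested were. Adam17, a protease that cuts Notch and many other membrane proteins, was higher (log2 fold change 0.36, adjusted p = 0.00031, limma), as were the gamma-secretase subunit Psen2 (0.36, adjusted p = 0.0006) and the receptor-processing enzyme Furin (0.27, 0.0014). Adam10, the main protease of ligand-induced Notch cleavage, was lower by a log2 fold change of -0.16 (adjusted p = 0.012, limma), which became 0.01 in relation to the endothelial markers and -0.01 in relation to the smooth muscle markers. The gamma-secretase subunits Ncstn (0.01), Aph1a (-0.05), Aph1b (0.03) and Psenen (-0.10) were not called.

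Of 5 genes of Notch glycosylation, 2 were lower and 1 was higher at an unadjusted p under 0.05, where 19.2% and 22.8% of all genes tested were. By the adjusted p (limma), 2 were lower and 0 were higher, where 14.3% and 17.2% of all genes were. These were the Fringe genes Lfng (log2 fold change -0.29, adjusted p = 0.0051) and Mfng (-0.28, 0.0079, limma), whose enzymes modify the receptor and favor Delta over Jagged ligands. Their changes were -0.13 and -0.12 in relation to the endothelial markers, with adjusted p of 0.11 and 0.15 (limma), and were not called relative to the smooth muscle markers either (0.078 and 0.097). Of 12 genes of endocytosis and ubiquitination, 2 were higher and 0 were lower in limma, where 17.2% and 14.3% of all genes tested were. The count of higher genes was thus near the share of all genes. At an unadjusted p under 0.05, 3 were higher and 0 lower, where 22.8% and 19.2% of all genes were. The 2 called genes were Deltex genes, which encode ubiquitin ligases that bind Notch. The other listed Deltex genes Dtx2 (0.34, adjusted p = 0.083) and Dtx3 (0.01, 0.92, limma) were not called. Dtx4 had values of 10.1, 9.81 and 9.73 FPKM in the BPVB group and 5.63, 6.34 and 5.63 in the sham group (log2 fold change 0.70, adjusted p = 0.00012, limma), and Dtx1 rose by 0.66 from a low level (adjusted p = 0.014, limma), or by 1.01 with limma-voom.

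Of 12 nuclear partners, 1 was higher and 2 were lower, where 17.2% and 14.3% of all genes tested were. Rbpj, the DNA-binding partner, had values of 19.9, 18.9 and 20.4 FPKM in the BPVB group and 15.7, 14.5 and 16.1 in the sham group (log2 fold change 0.35, adjusted p = 0.0022, limma). Rbpj was higher, without overlap, in the libraries in which Notch1, Notch4, Hes1 and Hey1 were lower. The corepressors Cir1 (-0.18, adjusted p = 0.018) and Ctbp1 (-0.13, 0.02, limma) were lower by small amounts. The call of Cir1 was lost without BPVB replicate 2 (0.058) and without sham replicates 1 and 2 (0.053 and 0.054), with limma-voom (0.075) and relative to the endothelial (0.81) or smooth muscle markers (0.57). That of Ctbp1 was lost with TPM scaling (adjusted p = 0.055, limma), without BPVB replicates 1 and 2 (0.06 and 0.05) and without sham replicates 2 and 3 (0.07 and 0.057). Relative to the endothelial markers, Ctbp1 was slightly above 0 (0.04, not called). The coactivators Maml1 (0.06), Maml2 (0.18) and Maml3 (0.09) were not called.

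**Figure D4:**
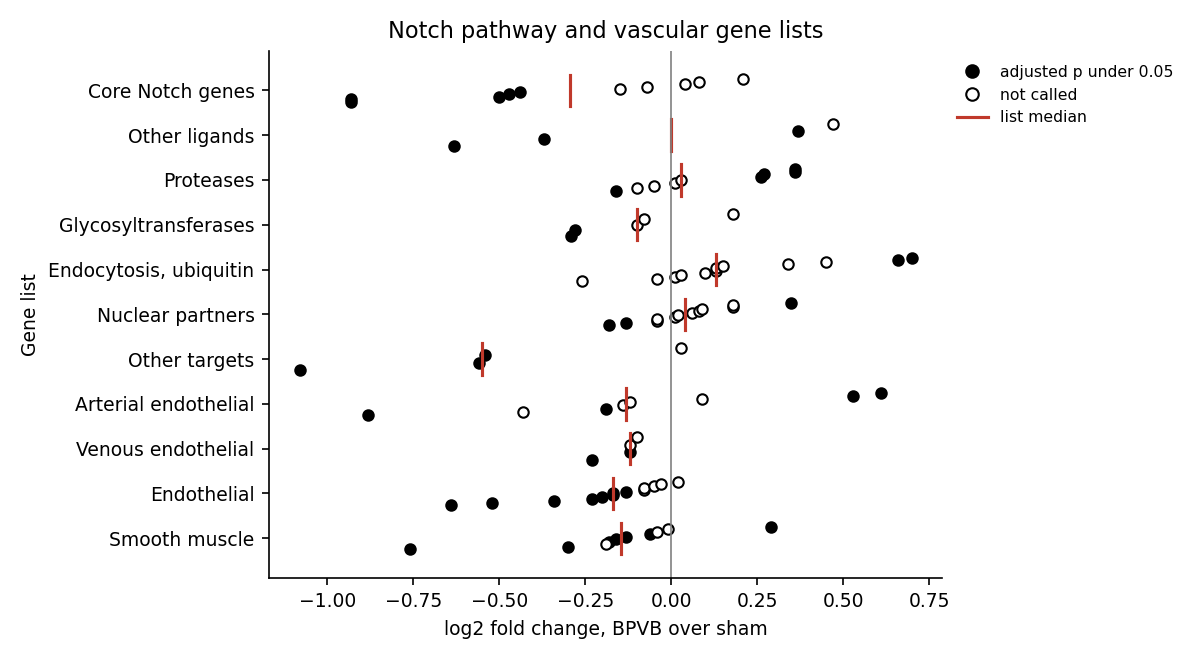
Log2 fold change (x axis, BPVB over sham) of each tested gene in the Notch and vascular gene lists (y axis), filled where the adjusted p was under 0.05 (limma) and open otherwise, with the list median as a red line. The genes listed as further targets (Nrarp, Hes2, Hes6 and Hes7) had a median of -0.55 and the core Notch genes of -0.29. The endothelial, smooth muscle, arterial, venous and glycosyltransferase lists had medians between -0.17 and -0.10. The proteases, nuclear partners and ubiquitination genes had medians between 0.03 and 0.13.

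Since Dll4 and Notch signaling are known for arterial identity, arterial and venous endothelial markers were set beside these genes. Of 8 arterial markers, 2 were higher and 2 were lower, where 17.2% and 14.3% of all genes tested were. The gap junction gene Gja4 (log2 fold change 0.53, adjusted p = 0.00012) and the netrin receptor gene Unc5b (0.61, 0.00021) were higher, and the chemokine receptor gene Cxcr4 (-0.88, 3.8e-05) and Nrp1 (-0.19, 0.0023, limma) were lower. Efnb2 (-0.12), Gja5 (0.09), Sox17 (-0.14) and Bmx (-0.43) were not called. Of 4 venous markers, 2 were lower and 0 were higher in limma, with 3 lower and 0 higher at an unadjusted p under 0.05. Aplnr (-0.23) fell the most of them, and Nr2f2, which encodes the venous transcription factor COUP-TFII, had a log2 fold change of -0.10 that was not called.

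Markers of other cells are given beside the 17.2% of all genes tested that were higher and the 14.3% that were lower. With an adjusted p under 0.05 (limma), 8 of 8 alveolar type 2 markers were higher, as were 5 of 6 alveolar type 1 markers (the sixth, Hopx, was lower, with a log2 fold change of -0.26), 8 of 10 macrophage markers and 6 of 6 proliferation markers. Of 5 lymphatic endothelial markers, 3 were higher and 1 was lower, and of 8 fibroblast markers 4 were higher and 2 were lower. Of 8 pericyte markers 1 was higher and 3 were lower, and of 8 cardiomyocyte markers 3 were higher and 5 were lower. Of 5 airway markers 1 was tested and was higher, and Cyp2f4 and Muc5b were at 0 in all sham libraries, while Scgb3a2 and Foxj1 were at 0 in all 3 BPVB libraries and in 2 of 3 sham libraries. The gene tested was Scgb1a1 (log2 fold change 2.52). Their part in the values of the Notch genes was not tested.

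Over the 6 libraries, the genes whose log2(FPKM + 0.5) was most like that of Notch4 were Myl4 (Pearson r = 0.998), Cntnap1 (0.998) and Dmpk (0.998), among 12156 other genes whose FPKM averaged 1 or more. The log2 fold changes of these genes were -0.21, -0.73 and -0.34. For Notch3, they were Gnptab (r = 0.993), Dok1 (0.986) and Sfmbt1 (0.985). These correlations describe 6 libraries in 2 groups and share the difference between the groups.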

How the data were processed

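RNA-seq values of PVs from 3 BPVB and 3 sham-operated rats were analysed, with groups and replicate numbers taken from the sample titles. The authors deposited FPKM per gene and rat. The study's methods name fastp, HISAT and HTSeq-count and a VAHTS Universal V6 kit. The submitters' processing notes name HISAT2 2.0.5, StringTie 1.3.3b, featureCounts 1.5.0-p3 and DESeq2 1.20.0, and the labels a NEBNext Ultra kit, so that the counter and kit remain unclear. The genome build, annotation and strand setting are not given in the sources used here. FPKM is scaled by the library total alone, so that highly expressed genes can shift the rest. Whole fragments and library totals were recovered from the whole-number ratios within genes (100.0% of genes, each value within 0.001 fragments of a whole number) and were used for depth and limma-voom. DESeq2 was not run here, and limma-voom was the only test on the recovered fragments.

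Genes averaging 0.1 FPKM or more were tested with limma 3.58.1 in R 4.3.3 (lmFit, eBayes with trend) on log2(FPKM + 0.5), two-sided, with Benjamini-Hochberg adjustment over all genes tested. The pseudocount understates fold changes at low FPKM. The procedure was also run on simulated data, with an outcome that is not reported here. Exact permutation tests were used for sums, shares and ratios; with 3 rats in each group they give p = 0.1 at the lowest. Python 3.11.15 with scipy 1.17.1 was used for the other steps.

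Dll3, Hes3, Hes5 and Robo4 of the lists were not analysed here. The 10 genes and all lists were chosen with earlier results of these data known. All 10 genes were named, as were called genes of the Notch lists, except 1 that is not reported here, and, of the vascular lists, up to 4 called genes with the largest changes. For Notch4 and Notch3, the member of the largest change and of the highest level, the 3 genes of highest correlation were named. The uncalled genes given with values, namely Hes7, Dlk1, Ncstn, Aph1a, Aph1b, Psenen, Maml1, Maml2, Maml3, Efnb2, Gja5, Sox17, Bmx, Nr2f2, Vwf, Dtx2 and Dtx3, were chosen after their values were seen. Alternatives were pseudocounts of 1 and 0.1, no filter, a filter at a mean FPKM of 1, median of ratios, TPM and quantile scaling, a replicate block, robust eBayes, limma-voom and leaving out each library, and for the marker sums a geometric mean. Scaling by the endothelial or smooth muscle marker sum was chosen after seeing the data.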

Additional observations from a re-analysis of the deposited data

How the results depend on the processing

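The falls of Dll4, Notch4, Notch1, Hes1 and Hey1 held in direction, with adjusted p under 0.05 (limma), in the 18 alternatives tried, with log2 fold changes between -0.97 and -0.77 for Dll4, -1.0 and -0.77 for Notch4, -0.47 and -0.28 for Notch1, -0.56 and -0.33 for Hes1, and -0.54 and -0.31 for Hey1. The number of Notch genes higher was 1 with limma-voom, and 3 with the endothelial and 3 with the smooth muscle marker scaling, where 8 of the 10 genes were called in all. Among the 46 further pathway genes, the endothelial scaling gave 20 higher and 4 lower (where 36.4% and 7.65% of all genes were) and the smooth muscle scaling 16 higher and 5 lower (where 33.3% and 8.17% were). By construction, these scalings move the median of all genes to 0.17 and 0.15. With each library left out in turn, the number of lower pathway genes was between 6 and 9. Signs turned under the endothelial scaling for Jag1 (0.02), Heyl (0.10), Adam10 (0.01) and Ctbp1 (0.04), and under the smooth muscle scaling for Heyl (0.08) and Ctbp1 (0.02), none of them called there. The difference in summed receptor FPKM was -11.4 after median of ratios scaling, and between -11.1 and -9.25 with each library left out. Same-numbered libraries correlated by 0.025, 0.014 and 0.015 in their deviations from the group means, so that the numbers do not pair the rats, although each library correlated best with its own number. With the replicate number as a block, 5 Notch genes were lower and 0 higher in limma, and 9 pathway genes were higher and 10 lower. The 10 genes had at least 582 fragments in each library, whereas Hes2, Hes7, Dner, Dlk1, Dlk2 and the listed ubiquitination gene Neurl1 had at most 84. Such counts limit what could be detected, and the calls of Hes2 and Dner rest on them.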

Other observations

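Notch4 lies in the class III part of the rat MHC, among genes that differed between the groups in both directions. Of the 8 genes within 25000 bases of Notch4 on the GRCr8 map, 7 were tested. Egfl8 was lower (log2 fold change -0.64, adjusted p = 0.0012, limma), and Ager (2.54, 2.1e-08), the complement gene C4b (1.5, 1.6e-05) and Pbx2 (0.31, 0.0039) were higher. Agpat1 (-0.11), Rnf5 (-0.22) and Gpsm3 (0.35) were not called. The mean FPKM of Ager, a marker of alveolar type 1 cells, was 57.6 in the BPVB group and 9.45 in the sham group, while that of Notch4 was 8.90 and 17.5. The neighborhood was chosen after its values were seen.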
